A study of Homo sapiens with 12 samples.

Results

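The snoRNA host genes examined here are 10 long noncoding genes whose introns carry small nucleolar RNAs (snoRNAs): GAS5, ZFAS1, SNHG1, SNHG5, SNHG6, SNHG7, SNHG8, SNHG12, SNHG15 and SNHG16. They were taken by gene name from a table of 58735 genes, and all 10 passed the filter on low counts that left 17729 genes for testing. Polyadenylated RNA of HEK293T, a human embryonic kidney cell line of WT genotype, was sequenced from 4 treatments with 3 libraries each. DMSO cells received vehicle only. The CEP group received AHL-Pu-1, a clickable electrophilic purine that reacts with cysteines of proteins, at 25 µM for 1 h. The 4SU group received 4-thiouridine, a uridine analog that is built into new RNA and crosslinks to bound protein under UV light, at 100 µM for 16 h. The CEP+4SU group received both, which is the condition that the study used to map RNA-sensitive cysteines. The labels give 1 protocol with crosslinking for all 12 libraries and state the CEP dose there in mM and in the design in µM. Whether cells without 4SU were irradiated is not stated. The design calls the replicates independent, in a single cell line, and names no shared day or batch.

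A snoRNA host gene makes a pair of products from 1 transcript. The intron is trimmed to a snoRNA, which guides ribose methylation of ribosomal RNA when it is of the box C/D class and pseudouridylation when it is of the box H/ACA class. The spliced remainder is exported, engages ribosomes although it holds no long reading frame, and is degraded by nonsense-mediated decay (NMD), so that its level is known to rise when translation or NMD is blocked. Many host genes start transcription at a 5′ terminal pyrimidine tract, the same feature that ties ribosomal protein mRNAs to growth signals. GAS5 was named for its accumulation in growth-arrested cells, where it can bind the glucocorticoid receptor. By the snoRNA genes annotated within them, SNHG1, SNHG5, SNHG6, SNHG16 and ZFAS1 host box C/D snoRNAs, as GAS5 is known to do, SNHG7, SNHG8 and SNHG15 host H/ACA snoRNAs, and SNHG12 hosts both kinds.

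The first bases of the host transcripts are shown for the members whose RNA moved most clearly with 4SU and for others with a like start that did not. Each run is the first 30 bases of a GENCODE 29 transcript on GRCh38, read 5′ to 3′, with the pyrimidine tract in capitals. A tract was defined as a C followed by at least 3 pyrimidines, and for each gene the start shared by most of its transcripts with a tract is given. GAS5 and SNHG1 passed the test for 4SU, SNHG12 and ZFAS1 had values of like size that did not pass, and SNHG16 and SNHG5 had values near 0. SNHG6, SNHG7 and SNHG8 also have a transcript that starts with a tract and are not shown. Their log2 fold changes for 4SU were 0.037, 0.31 and 0.15, and none passed.

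GAS5 (GAS5-219, chr1:173867960-173867989, minus strand): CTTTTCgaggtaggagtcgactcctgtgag
SNHG1 (SNHG1-203, chr11:62855450-62855479, minus strand): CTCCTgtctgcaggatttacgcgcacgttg
SNHG12 (SNHG12-202, chr1:28581844-28581873, minus strand): CCTTTCTCCCCgccgcattcccggtgtcga
ZFAS1 (ZFAS1-201, chr20:49278642-49278671, plus strand): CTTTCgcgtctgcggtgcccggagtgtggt
SNHG16 (SNHG16-204, chr17:76557769-76557798, plus strand): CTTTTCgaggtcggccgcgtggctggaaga
SNHG5 (SNHG5-202, chr6:85678704-85678733, minus strand): CTTTTacgtcggccttcgcgagcgtctggg

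GAS5 and SNHG16 are identical over their first 11 bases. A tract opened at least 1 annotated transcript in 9 of the 10 members, with SNHG15 the exception, against 9.96% of all genes and 27.8% of the genes with at least as many annotated transcripts as the member with fewest. Counted by transcript, 27 of the 136 member transcripts (19.9%) started this way, against 3.81% of all 206694 transcripts. The SNHG1 start belongs to 1 of its 25 transcripts and the SNHG12 start to 2 of its 17. The printed transcripts of SNHG1 and SNHG12 are annotated as retained introns. The annotated start, not a measured one, was used, and a tract found by its letters is a description of the annotation.

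The libraries held 16569114 to 24644734 counts on genes. A member received between 216 counts, for SNHG8 in CEP replicate 2, and 3691 counts, for GAS5, in a library. CEP replicate 2 and CEP+4SU replicate 2 had the fewest genes with a count, 22230 and 22627, against at least 24376 in each of the other 10 libraries. Counts that lead below were therefore also taken without these libraries, a choice made after the data were seen. KRT8, KRT18, VIM and NEFL, which the line is known to express, ranged from 9.65 to 50.3 FPKM (fragments per length of gene and size of library), while the leukocyte marker PTPRC, the hepatocyte marker ALB and the endothelial marker PECAM1 did not exceed 0.121 FPKM in any library. The fibroblast marker COL1A1 lay at 2.89 to 4.22 FPKM.

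GAS5 had the highest level per length of the 10 genes in the DMSO group, at 37.7 ± 0.402 FPKM (SD, n = 3). SNHG5 at 34.8 ± 3.13 FPKM and SNHG6 at 31.3 ± 2.28 FPKM followed, and the ranges of neighbors among these 3 overlapped. SNHG1 at 26.0 ± 0.311 FPKM, SNHG8 at 23.7 ± 3.20 FPKM and SNHG16 at 21.9 ± 1.44 FPKM formed the next group of overlapping neighbors. SNHG7 at 14.5 ± 0.283 FPKM and SNHG15 at 13.8 ± 1.14 FPKM also overlapped, whereas ZFAS1 at 12.3 ± 0.671 FPKM and SNHG12 at 5.41 ± 0.733 FPKM each stood below all libraries of the gene before. The 10 genes lay above 57.8% to 92.9% of the tested genes. FPKM divides by the length of all annotated exons of a gene, which is 3631 bases for GAS5 although the GAS5-219 transcript has 542, and the order depends on that length.

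The treatments are compared in CPM, counts scaled to a common library size after normalization, each gene against itself. Summed over the 10 genes, the level was 681 ± 10.7 CPM in DMSO, 652 ± 80.0 CPM with CEP, 735 ± 29.8 CPM with 4SU and 777 ± 23.6 CPM with both (SD, n = 3 each). The 6 libraries without 4SU spanned 574 to 734 CPM and the 6 with 4SU spanned 705 to 803 CPM, so the sums overlapped.

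**Figure D1:**
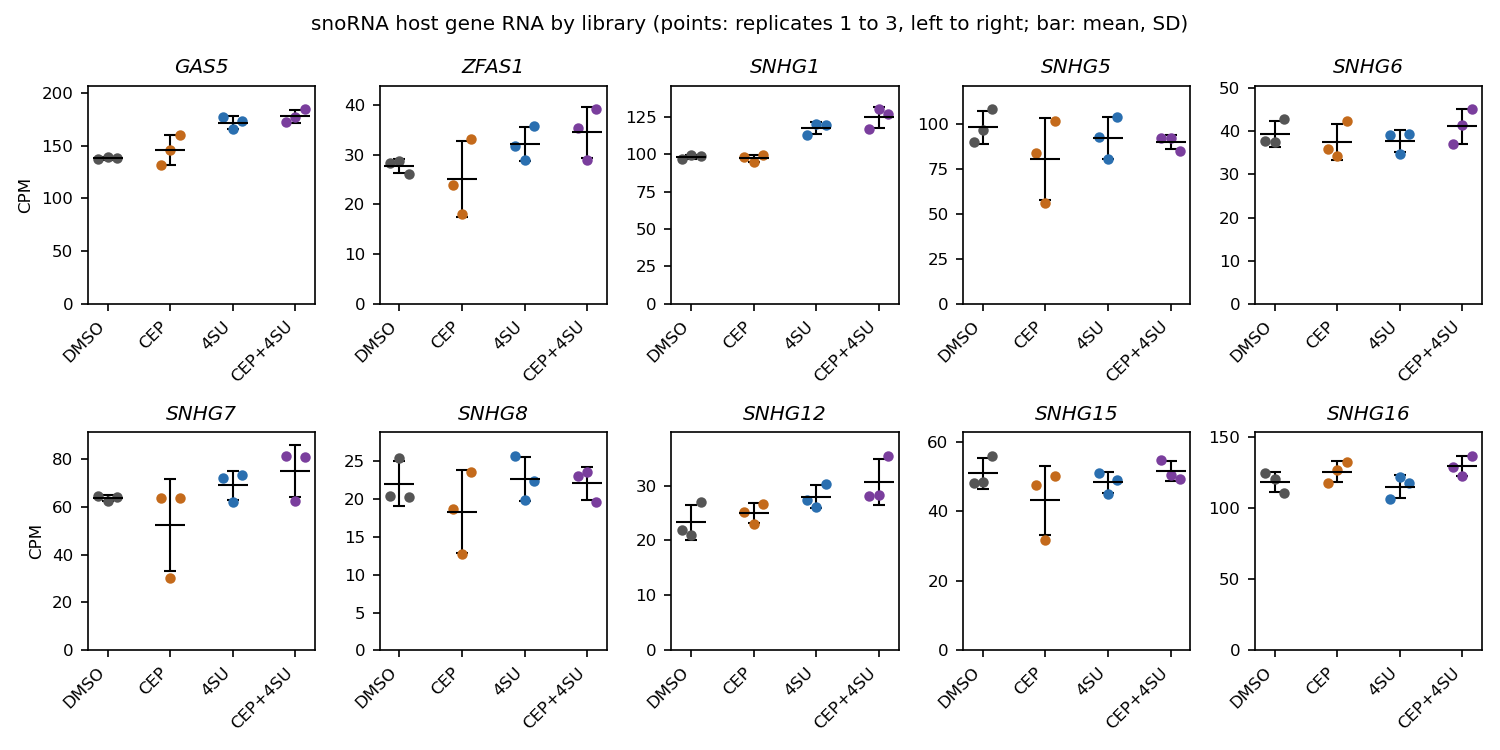
RNA level of the 10 snoRNA host genes in the 12 libraries, in CPM from 0, by treatment group; points are replicates 1 to 3 from left to right, the bar is the mean and the whiskers are the SD. GAS5 and SNHG1 are higher in every library with 4SU than in any without, SNHG16 is level across the groups, and CEP replicate 2 is the low point of SNHG5, SNHG7, SNHG8, SNHG15 and ZFAS1.

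The comparison of libraries with and without 4SU, averaged over CEP (6 against 6), asks whether host gene RNA differed with 4SU, and 4SU and irradiation cannot be told apart in it if cells without 4SU were not irradiated. GAS5 and SNHG1 rose by 23.1% and 23.7%, whereas the other 8 members did not pass the threshold. These 2 of 10 stand beside 99 of the 17729 tested genes (0.558%) that passed in either direction. All 10 members had a log2 fold change above 0, from 0.0012 to 0.33 with a median of 0.21. The median over all tested genes was -0.0019 and 49.3% of them lay above 0. For 4SU against DMSO, 6 of the 10 members lay above 0, with a median of 0.079, beside 48.2% of all tested genes. The libraries without 4SU include CEP replicate 2, the lowest library of 7 members. Without CEP replicate 2 the averaged value of SNHG5 was -0.063. Each change was tested by edgeR's quasi-likelihood test in the fit of all tested genes, and a gene was called at a Benjamini-Hochberg adjusted p of at most 0.05.

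GAS5 (chr1:173863900-173868882, minus strand) was at 136.9, 139.6 and 137.8 CPM in DMSO and at 132.0, 145.5 and 160.3 CPM with CEP. It was at 176.9, 165.3 and 173.2 CPM with 4SU and at 172.0, 176.9 and 184.4 CPM with both. Every library with 4SU was above every library without it. The log2 fold change was 0.30 (SE 0.054, 95% interval 0.19 to 0.41, edgeR adjusted p = 0.0161).

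SNHG1 (chr11:62851988-62855914, minus strand), the host of a row of C/D snoRNAs that includes SNORD22, gave the same picture. Its level was 97.2, 99.6 and 98.7 CPM in DMSO and 98.3, 94.8 and 99.4 CPM with CEP. With 4SU it was 113.2, 120.4 and 119.8 CPM, and with both 117.0, 130.2 and 127.2 CPM. The 6 libraries without 4SU lay close together and below all 6 with it. The log2 fold change was 0.31 (SE 0.051, 95% interval 0.20 to 0.41, edgeR adjusted p = 0.0125). GAS5 and SNHG1 were the 2 of 10 members in which the libraries with and without 4SU did not overlap in this direction, as was the case for 87 of all tested genes (0.491%).

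Both calls rested on single libraries in part. Without 4SU replicate 3 the edgeR adjusted p was 0.0700 for GAS5 and 0.05002 for SNHG1, just above the threshold, and without DMSO replicate 1 it was 0.0708 and 0.0587. GAS5 also missed the threshold without DMSO replicate 2 (edgeR adjusted p = 0.0555) or DMSO replicate 3 (edgeR adjusted p = 0.0652). The number of all tested genes called fell as well, from 99 to 14 without 4SU replicate 3 and to 6, 26 and 17 without DMSO replicate 1, 2 and 3. The log2 fold changes moved little, from 0.27 to 0.33 for GAS5 and from 0.29 to 0.33 for SNHG1 over the 12 libraries left out in turn. Without the 2 libraries with the fewest genes, 3 members rose, GAS5, SNHG1 and SNHG7 (log2 fold change 0.24, edgeR adjusted p = 0.0446), beside 1.23% of all tested genes.

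Among the other hosts of C/D snoRNAs, ZFAS1, a transcript from the promoter region of ZNFX1, had the largest value of the 10 genes but a wide spread. It was at 28.4, 28.8 and 26.1 CPM in DMSO, 23.9, 18.1 and 33.1 CPM with CEP, 31.8, 28.9 and 35.8 CPM with 4SU and 35.3, 29 and 39.1 CPM with both. CEP replicate 3 was above 3 of the 6 libraries with 4SU. The log2 fold change for 4SU was 0.33 (95% interval 0.096 to 0.57, edgeR adjusted p = 0.198). With 1 of the 12 libraries left out in turn it ran from 0.25 to 0.46, and it passed in 1 of these 12 fits. That fit was without CEP replicate 3 (0.46, edgeR adjusted p = 0.0429), beside 0.546% of all tested genes.

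SNHG16, which shares its first 11 bases with GAS5, had a log2 fold change of 0.0012 for 4SU (95% interval -0.12 to 0.12, edgeR adjusted p = 0.997). Its level was 124.8, 120.3 and 110.4 CPM in DMSO, 117.9, 127.0 and 132.7 CPM with CEP, 106.5, 121.9 and 117.5 CPM with 4SU, and 128.8, 123.0 and 136.9 CPM with both. The interval ends below the lower bound of GAS5. The ratio of GAS5 to SNHG16 CPM was 1.16 ± 0.0564 (SD, n = 6, from 1.10 to 1.25) without 4SU and 1.44 ± 0.124 (SD, n = 6, from 1.33 to 1.66) with it. The ratios did not overlap, and as this pair was chosen with the values known, the ratio is given without a test.

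SNHG5, host of SNORD50B, was at 90.3, 96.7 and 108.5 CPM in DMSO and 84.3, 56.3 and 101.7 CPM with CEP. It was at 92.9, 80.8 and 104.1 CPM with 4SU and 92.2, 92.5 and 85.5 CPM with both, all within the range of the libraries without 4SU. Its log2 fold change for 4SU was 0.034 (95% interval -0.18 to 0.25). SNHG6 ranged from 34.3 to 45.1 CPM over the 12 libraries, with a log2 fold change of 0.037 (95% interval -0.12 to 0.20).

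Of the hosts of H/ACA snoRNAs, SNHG12 was at 21.8, 21.0 and 27 CPM in DMSO, 25.2, 23.0 and 26.6 CPM with CEP, 27.4, 26.2 and 30.3 CPM with 4SU and 28.2, 28.2 and 35.4 CPM with both. Only 1 library with 4SU, replicate 2, fell inside the range of those without. Its log2 fold change of 0.28 (95% interval 0.097 to 0.46) did not pass (edgeR adjusted p = 0.155). SNHG7 was at 64.6, 62.3 and 64.3 CPM in DMSO, 63.5, 30.2 and 63.7 CPM with CEP, 72.0, 62.0 and 73.1 CPM with 4SU and 81.3, 62.4 and 81.0 CPM with both. CEP replicate 2 was far below the rest, and the second replicate was also the lowest of each group. Its log2 fold change of 0.31 had a 95% interval of 0.044 to 0.58 (edgeR adjusted p = 0.307). SNHG8 (log2 fold change 0.15) ranged from 12.7 to 25.7 CPM and SNHG15 (0.088) from 31.8 to 55.9 CPM, and neither passed.

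**Figure D2:**
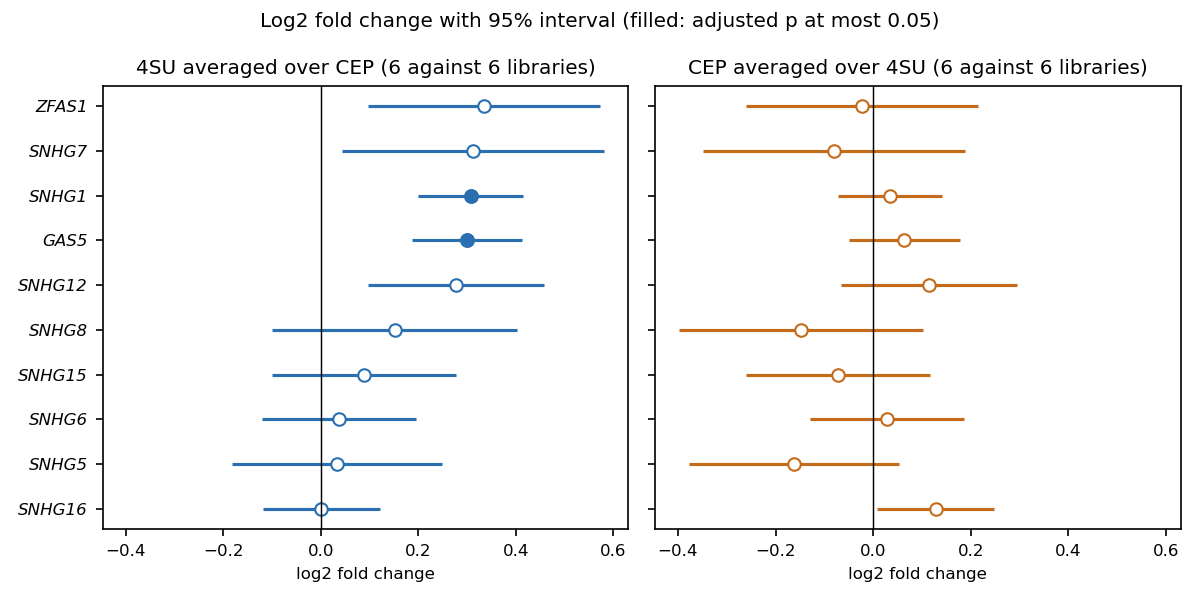
Log2 fold change of each snoRNA host gene for 4SU averaged over CEP (left) and CEP averaged over 4SU (right), 6 libraries against 6, with 95% intervals from the edgeR fit; filled points have an adjusted p of at most 0.05. GAS5 at 0.30 and SNHG1 at 0.31 are the filled points and have the narrowest intervals, while ZFAS1, SNHG7 and SNHG12 have values of like size with wider intervals and SNHG16 sits at 0.0012.

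Against DMSO alone, 3 libraries against 3, GAS5 and SNHG1 had values of like size for 4SU, and neither passed in the model of all 12 libraries. The log2 fold change was 0.32 for GAS5 (SE 0.076, edgeR adjusted p = 0.502) and 0.26 for SNHG1 (SE 0.073, edgeR adjusted p = 0.557), with 0.26 for SNHG12. In this comparison 0 members passed with edgeR, and 1 of all tested genes passed (0.00564%). An unadjusted p under 0.05 was found for 3 members and for 6.5% of all tested genes. DESeq2 called 1 member, GAS5 (adjusted p = 0.0216), and edgeR fitted to the 6 libraries alone called GAS5 (adjusted p = 0.00878) and SNHG1 (adjusted p = 0.0442). These settings also called more of all genes, 19 of 5236 with an adjusted p by DESeq2 (0.363%) and 94 of 16864 with the 6 libraries (0.557%). Over all alternatives other than single libraries left out, the adjusted p ran from 0.00878 to 0.456 for GAS5 and from 0.0442 to 0.528 for SNHG1.

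With CEP and 4SU together, GAS5 and SNHG1 were again the members that passed, 2 of 10 beside 1.64% of all tested genes. GAS5 rose by 28.7% (log2 fold change 0.36, SE 0.076, edgeR adjusted p = 0.0290) and SNHG1 by 26.8% (log2 fold change 0.34, SE 0.072, edgeR adjusted p = 0.0301). SNHG12 had the largest value, 0.39 (95% interval 0.14 to 0.65, edgeR adjusted p = 0.0873), and ZFAS1 stood at 0.31 (95% interval -0.022 to 0.65). SNHG12 was called in 4 of 11 alternatives other than single libraries left out. Among these were DESeq2 (adjusted p = 0.0387), beside 9.96% of the genes it gave an adjusted p, and edgeR without the low-count filter (adjusted p = 0.0486), beside 3.46%. SNHG8 and SNHG15 stood at 0.0039 and 0.017 and SNHG5 at -0.13. This comparison shares its CEP+4SU and DMSO libraries with the averaged one. It depended on each DMSO library: without DMSO replicate 1, 2 or 3, or without CEP+4SU replicate 2 or 3, 0 members passed beside 14 to 32 of all tested genes, with log2 fold changes of 0.33 to 0.38 for GAS5 and 0.31 to 0.35 for SNHG1. Without both libraries with the fewest genes, 3 passed, SNHG7 being the one added (0.35, edgeR adjusted p = 0.0395), beside 0.863% of all tested genes.

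For CEP, 1 h of an electrophile that also binds proteins of RNA metabolism, 0 of the 10 members passed against DMSO with edgeR, 0 had an unadjusted p under 0.05, and 0 were called by DESeq2. Of all tested genes 0.0564% passed with edgeR, a share that was 6.61% without CEP replicate 1 and 1.83% with DESeq2, and in both settings 0 members passed. The log2 fold changes ran from -0.28 for SNHG5 (95% interval -0.59 to 0.020) and -0.28 for SNHG7 (95% interval -0.66 to 0.10) to 0.10 for SNHG12, with a median of -0.11. Of the 10 members 7 lay below 0 and 3 above, while 49.4% of all tested genes lay above 0, with a median of -0.0047. GAS5 at 0.080 (95% interval -0.080 to 0.24), SNHG1 at -0.014 (95% interval -0.17 to 0.14) and SNHG16 at 0.087 were the most precisely measured.

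CEP replicate 2 had the lowest level of all 12 libraries for 7 of the 10 members. Relative to the DMSO mean, it held 0.473 of SNHG7, 0.571 of SNHG5, 0.577 of SNHG8, 0.626 of SNHG15 and 0.651 of ZFAS1. In the same library SNHG6 was at 0.873, SNHG1 at 0.963, SNHG12 at 0.989, GAS5 at 1.05 and SNHG16 at 1.07 of the DMSO mean. The longest transcript of SNHG7 has the highest GC content of the members, 65.9%, and those of SNHG6, GAS5, SNHG1 and SNHG16 the lowest, 42.0% to 45.1%, where the median of the tested genes is 48.5%. Over the 10 members the ratio in this library and the GC content had a Pearson r of -0.569, a description of 1 library. Without CEP replicate 2 the log2 fold change of SNHG7 for CEP was -0.0014, and with each library's trend on GC content removed it was 0.049. The part of GC content in the low values was not tested. SNHG12 with 56.6% GC was not low there, while SNHG5 with 47.1% and SNHG8 with 49.3%, both near the median of the tested genes, were.

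**Figure D3:**
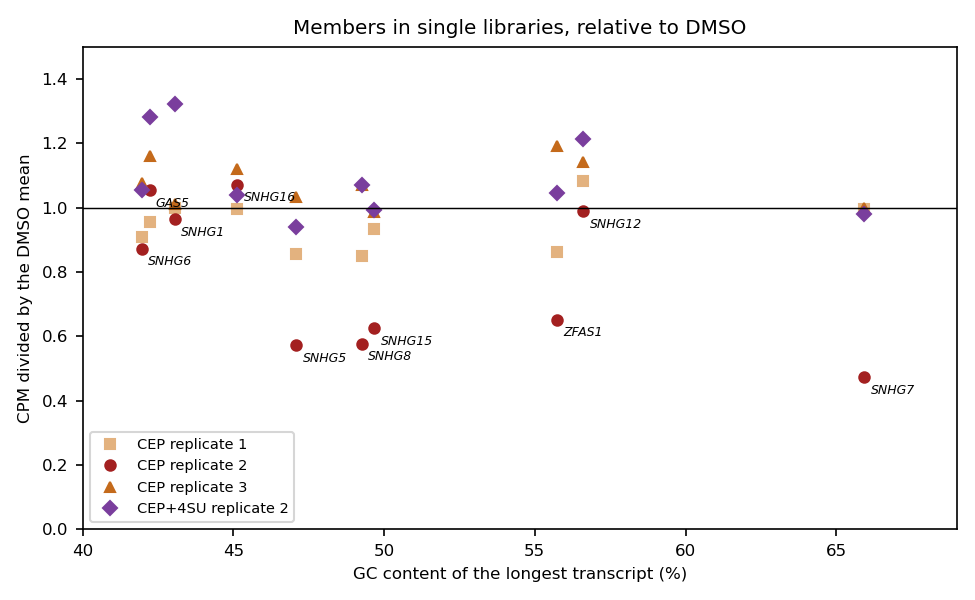
CPM of each snoRNA host gene divided by its DMSO mean (vertical axis, ratio) against the GC content of its longest annotated transcript (horizontal axis, percent), in the 3 CEP libraries and in CEP+4SU replicate 2. In CEP replicate 2, the round points, SNHG7 lies at 0.473, 4 more members lie between 0.571 and 0.651, and the other 5 lie between 0.873 and 1.07.

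Averaged over 4SU, CEP again moved 0 of the 10 members past the threshold with edgeR, beside 0.276% of all tested genes. DESeq2 also called 0 members, beside 14.6% of the genes it gave an adjusted p. With replicate number as a block, edgeR called 0 members beside 12.8% of all tested genes. In the main fit SNHG16 alone had an unadjusted p under 0.05, with a log2 fold change of 0.13 (95% interval 0.0077 to 0.25, edgeR adjusted p = 0.183). The median of the members was 0.0030. The interaction, which tests whether the response to CEP differs with and without 4SU, was passed by 0 members and by 0% of all tested genes with edgeR and by 0 members with DESeq2. None of the 10 had an unadjusted p under 0.05. Interaction values were above 0 for 9 of 10 members with a median of 0.21, beside 50.8% of all tested genes with a median of 0.0039. The 95% intervals of all 10 included 0, with SNHG7 at 0.39 (95% interval -0.14 to 0.93). With 1 library left out in turn, SNHG7 ran from 0.11 to 0.55, SNHG5 from 0.033 to 0.44 and SNHG8 from 0.0086 to 0.44. The CEP group holds CEP replicate 2, in which these members were low.

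Over the 12 libraries the log2 CPM of member pairs had a median Pearson r of 0.503, and 41 of the 45 pairs were above 0. SNHG5 and SNHG15 were most alike (r = 0.917), GAS5 and SNHG1 had r = 0.884, and the lowest value was -0.299. These libraries share the groups and CEP replicate 2, so the values describe the set and carry no test. The genes outside the set whose levels were most like the mean of the members over the 12 libraries, among 10318 with at least 10 CPM, were CMC1, a mitochondrial copper protein (r = 0.938), HMGB2, a chromatin protein (r = 0.902), PEA15 (r = 0.895), TRIT1, a tRNA modifying enzyme (r = 0.891), and ERP29, a protein of the endoplasmic reticulum (r = 0.880).

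Other host genes were examined for the same comparison. Of 17 further noncoding hosts 13 were tested and 0 passed with edgeR in any comparison, with a median log2 fold change of 0.056 and 10 of 13 above 0 for 4SU averaged over CEP. Among the comparisons with DMSO and the averaged ones, C6orf48, also called SNHG32, at -0.60 with CEP (edgeR adjusted p = 0.173), and SNHG11 at -0.36 with CEP (edgeR adjusted p = 0.181) had the smallest unadjusted p. The interaction of SNHG11 had a smaller one, with a log2 value of 0.59 (95% interval 0.25 to 0.94, edgeR adjusted p = 1.00). Hosts that code for proteins stood on the other side of 0. Of 34 tested, 5 were above 0 for 4SU, with a median of -0.074, and RPL4, a protein of the large ribosomal subunit, was the 1 that passed, at -0.23 (SE 0.047, edgeR adjusted p = 0.0342). Its level was 2334 ± 163 CPM without 4SU and 1993 ± 68.7 CPM with it (SD, n = 6 each). EIF4A2, a translation initiation helicase, rose with both compounds by 0.34 on the log2 scale (SE 0.085, edgeR adjusted p = 0.0492). Its libraries with both were at 226, 230 and 281 CPM.

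Genes of the decay pathway that acts on spliced host RNA were counted in the same way. Of 21 NMD and exon junction factors 0 passed for 4SU averaged over CEP (median 0.025). With both compounds UPF2, a core NMD factor, rose by 0.37 (SE 0.087, edgeR adjusted p = 0.0422). UPF2 was at 63.2 ± 1.79 CPM in DMSO and 81.7 ± 7.82 CPM with both (SD, n = 3 each), where the libraries were at 76.9, 77.4 and 90.7 CPM. With both compounds 290 of all tested genes passed, and 812 without CEP+4SU replicate 1. Without 1 of the DMSO libraries, or without CEP+4SU replicate 2 or 3, 14 to 32 passed. Of 17 mRNAs regulated by NMD 0 passed in any comparison, and for 4SU 4 of 17 were above 0, with a median of -0.066. The splicing factor mRNAs SRSF2 and SRSF6 had the smallest p, at -0.17 and -0.18 for 4SU (edgeR adjusted p = 0.124 and 0.138). Of 10 exonucleases and decapping enzymes 0 passed, and XRN1 at 0.29 and DCP2 at 0.24 for CEP averaged over 4SU came nearest (edgeR adjusted p = 0.0810 and 0.0885).

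Of 17 snoRNP proteins and assembly factors, which package and mature the snoRNAs, 0 passed for 4SU averaged over CEP, with a median of -0.053. RUVBL2, an ATPase of the snoRNP assembly machinery, fell by 0.36 on the log2 scale with both compounds (SE 0.084, edgeR adjusted p = 0.0391), from 267 ± 5.00 CPM in DMSO to 208 ± 25.3 CPM (SD, n = 3 each). The libraries with both were at 179, 220 and 225 CPM.

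**Figure D4:**
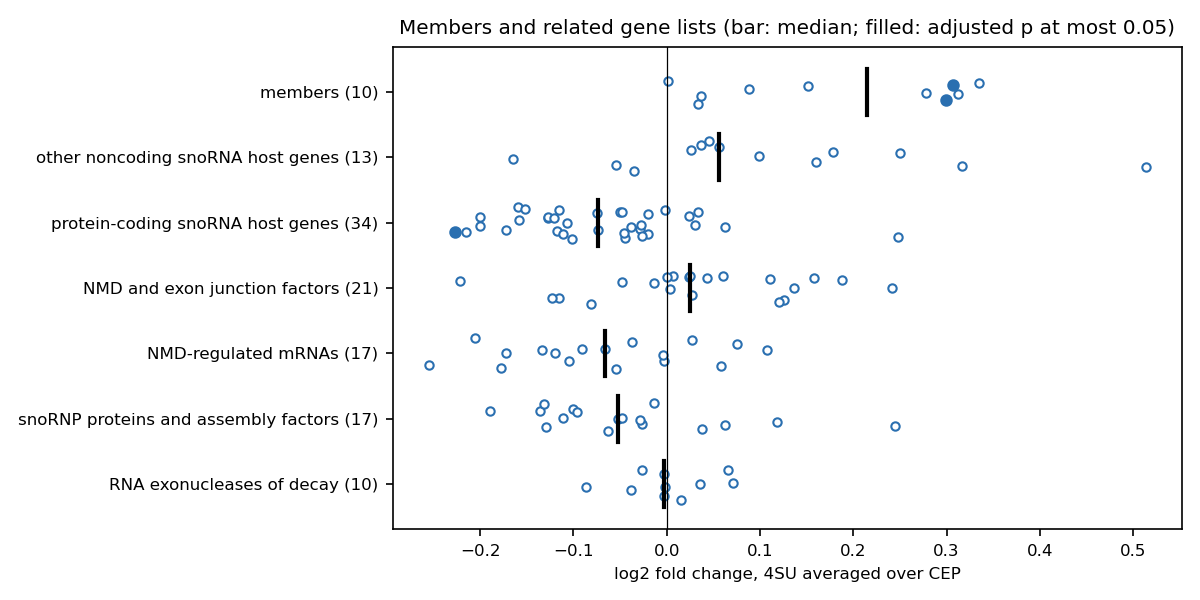
Log2 fold change for 4SU averaged over CEP (horizontal axis) of the 10 members and of the genes in 6 related lists, 1 row per list with the number tested in brackets; points are genes, spread vertically for legibility, filled where the adjusted p is at most 0.05, and the bar is the median. The members have a median of 0.21 and run from 0.0012 to 0.33. The protein-coding hosts have a median of -0.074 with RPL4 filled at -0.23, and the other medians lie between -0.066 and 0.056.

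The libraries were made from polyadenylated RNA, and the snoRNAs themselves drew few counts. Of 26 snoRNA genes inside the members on the same strand, 4 had any count, 241 counts in all over the 12 libraries. They were SNORD12B and SNORD12C in ZFAS1 with 90 counts together, SNORD99 in SNHG12 with 130, and SNORD1B in SNHG16 with 21. SNHG1, with 7 snoRNA genes inside, had 0 counts on them against 26064 on the host. A change of host RNA can therefore not be set beside one of the snoRNA here.

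Some members share their locus with a gene on the other strand, and whether the counting used the strand is not stated. ZBTB37 overlaps GAS5 and held 5900 counts over the 12 libraries against 37624 for GAS5, with a log2 fold change of -0.0076 for 4SU (edgeR adjusted p = 0.986). ZNFX1 overlaps ZFAS1 with 6510 counts against 7130, and TRNAU1AP overlaps SNHG12 with 6512 against 6361. FAM69B overlaps SNHG7 with 18289 counts against 15571 and had a log2 fold change of -0.44 with both compounds (edgeR adjusted p = 0.0668). GAS5 also has GAS5-AS1 (274 counts), SNHG6 has MCMDC2 (108 counts) and SNHG16 has AC015802.6 (67 counts) on the other strand. For all 6 of these hosts, reads of the neighbor where the genes overlap cannot be told apart from those of the host if strand was ignored. SNHG1, SNHG5, SNHG8 and SNHG15 had no such neighbor in the table.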

How the data were processed

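The authors filtered reads for adapters, undetermined bases and quality, aligned them with HISAT2 2.0.5 to GRCh38 and deposited whole-number counts per gene from featureCounts 1.5.0-p3. The deposited FPKM values divide these counts by gene length and by an adjusted library size. Every sample column was used, and a table of the authors' group means was not needed. The members and lists were chosen with earlier results of these data known. Genes passing edgeR's filterByExpr (minimum count 10, total 15) entered 1 quasi-likelihood model of the 4 groups with TMM factors (R 4.3.3, edgeR 4.0.16), without replicate numbers, with Benjamini-Hochberg adjustment over 17729 genes at 0.05. The common biological coefficient of variation was 0.114. P-values measure the spread between these libraries.

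All 10 members were named, with the passing genes of each list (at most 4, by smallest adjusted p, or the 2 with the smallest p where none passed) and the 5 genes most like the members' mean. One gene that this rule selects is not reported here. Counting error and the spread of 3 libraries limit the precision. Alternatives used DESeq2 1.42.0 and limma 3.58.1 on log2 FPKM, with pseudocounts 1 and 0.1. GC content came from the longest GENCODE 29 transcript (58676 of 58735 genes), and its trend was removed in each library by lowess (span 0.3).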

Additional observations from a re-analysis of the deposited data

How the results depend on the processing

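For 4SU averaged over CEP, the number of members called (2) was 5 at an adjusted p of 0.5 or less (20.5% of all tested genes), 4 with the GC trend removed (3.41%), 4 with no low-count filter (0.873%), and 0 to 3 with 1 library left out (0.0328% to 0.687%). For CEP+4SU against DMSO (2) it was 6 at an adjusted p of 0.5 or less (47% of all tested genes), 1 by limma on log2 FPKM with either pseudocount (0.118% and 0.135%), and 0 to 2 with 1 library left out (0.0766% to 4.42%). For 4SU against DMSO (0) it was 1 with DESeq2 (0.363%) and 2 with only the 6 libraries (0.557%). For CEP it was 4 against DMSO (44.4%) and 5 averaged over 4SU (52.3%) at an adjusted p of 0.5 or less. With the replicate block, 3 members were called with both compounds and 3 for 4SU averaged over CEP, SNHG12 being the one added (log2 fold change 0.39 and 0.28, edgeR adjusted p = 0.0148 and 0.0368), beside 9.4% and 1.9% of all tested genes. Same-numbered libraries of different groups deviated from their group means with r from -0.0469 to 0.141 over 18 pairs, and a library was most like its own number in 16 of 36 cases, so the numbers were not taken as pairs. With the GC trend removed, GAS5 was lost with both compounds (0.25, edgeR adjusted p = 0.0523). SNHG7 (0.57, edgeR adjusted p = 0.0358) and SNHG12 (0.54, edgeR adjusted p = 0.01885) were added there, beside 1.26% of all tested genes. Over the 10 alternatives that kept all groups, the log2 fold change for 4SU averaged over CEP ran from 0.29 to 0.34 for GAS5 and from 0.29 to 0.35 for SNHG1, and both were called in 10 of 10. No member changed sign under any alternative in a comparison in which it was called. The cause of these differences was not tested.

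Of 1165 single-gene values under the alternatives, 61 had the other sign, each in a comparison in which that member was not called. With the GC trend removed these were for CEP against DMSO GAS5 -0.045 and SNHG7 0.049, for CEP averaged over 4SU GAS5 -0.040, SNHG1 -0.056, SNHG6 -0.079, SNHG7 0.19 and ZFAS1 0.076, for both compounds SNHG6 -0.053, and for the interaction GAS5 0.011 and SNHG12 -0.029. Library size alone gave SNHG16 0.016 for 4SU, and no low-count filter gave SNHG8 -0.0020 with both compounds. Without both libraries with the fewest genes, SNHG1 was at 0.0078 and ZFAS1 at 0.045 for CEP against DMSO, SNHG15 at 0.020, SNHG7 at 0.11 and ZFAS1 at 0.12 for CEP averaged over 4SU, SNHG5 at -0.073 for 4SU averaged over CEP, and SNHG8 at -0.045 both for the 2 compounds together and for the interaction (-0.045).

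With 1 library left out in turn, the following uncalled values crossed 0. For CEP against DMSO the ranges were -0.028 to 0.0078 for SNHG1, -0.17 to 0.0017 for SNHG6 and -0.40 to 0.044 for ZFAS1. For 4SU against DMSO they were -0.11 to 0.0057 for SNHG15, -0.082 to 0.021 for SNHG16, -0.17 to 0.011 for SNHG5, -0.087 to 0.012 for SNHG6 and -0.053 to 0.17 for SNHG8. For both compounds they were -0.041 to 0.091 for SNHG15, -0.013 to 0.13 for SNHG6 and -0.054 to 0.12 for SNHG8. For CEP averaged over 4SU they were -0.13 to 0.014 for SNHG15, -0.023 to 0.061 for SNHG6, -0.16 to 0.054 for SNHG7 and -0.15 to 0.068 for ZFAS1. For 4SU averaged over CEP they were -0.022 to 0.033 for SNHG16 and -0.063 to 0.13 for SNHG5, and for the interaction -0.12 to 0.038 for GAS5 and -0.10 to 0.087 for SNHG12. With 216 counts in its lowest library, SNHG8 is the member that depth limits most.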
